A study of Mus musculus with 25 samples.

Results

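Liver RNA of male C57BL/6J mice that spent 12 weeks on the FAT-MASH regimen and drank 5% mannose in the last 6 of those weeks, here called 5% therapy, was compared with liver RNA of mice on normal chow. The members were chosen by their labels and are 6 of the 25 libraries in the series. They are the 3 libraries of 5% therapy and the 3 normal diet libraries of the same batch date. Members, gene lists and comparisons were chosen with earlier results of these data known. Mice were 8 weeks old at the start and about 20 weeks old at the end. FAT-MASH mice ate chow in which cholesterol made up 1.25%, fat 21.1% and sucrose 41%, drank water with 23.1 g/L fructose and 18.9 g/L glucose, and were injected weekly with carbon tetrachloride, a solvent that injures hepatocytes. Control mice ate LabDiet 5053 and drank water, and the labels name no injection for them. The comparison therefore joins chow, sugar water, toxin and mannose, and what each of them contributed cannot be told apart in it. Direct tests against FAT-MASH without mannose, and against 5% prevention (the same regimen with 5% mannose in the water for all 12 weeks), both of 3 libraries, are given at the end. The labels call the replicates biological; the p-values measure the spread between these livers, and cage mates are not named in the sources used here.

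The FAT-MASH regimen is a model of metabolic dysfunction-associated steatohepatitis, in which fat, sugar and repeated toxic injury produce a fatty, inflamed and scarred liver. Dietary cholesterol represses its own synthesis in hepatocytes by holding back SREBP2, the transcription factor of the sterol genes, while oxysterols turn on LXR, which drives sterol export. Fructose is trapped in hepatocytes by ketohexokinase and feeds fat synthesis, and mannose enters the same cells through glucose transporters to be phosphorylated by hexokinase and then isomerised to a fructose phosphate or used for protein glycosylation.

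Livers of 5% therapy differed from those on normal diet in 4 broad respects. Nearly all genes of cholesterol synthesis fell, with squalene epoxidase at 6.35 to 9.6 CPM (read counts scaled to library size) against 121 to 140. Most genes that mark male mouse liver, pericentral hepatocytes and amino acid breakdown fell. Of fatty acid oxidation genes 13 of 25 rose, of sterol efflux genes and LXR targets 6 of 12, and of p53 targets 10 of 18. Markers of monocyte-derived macrophages rose in 11 of 13 cases and interstitial matrix genes in 9 of 24. For most members of both lists the same 1 of the 3 treated livers was the lowest. Both counts fell without 5% therapy replicate 2, and the matrix count also without normal diet replicate 3. Of all genes tested, 7.04% were higher and 5.89% lower.

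Total counts of the 6 libraries were 31298299 to 55786288, and the 10 most abundant genes held 16.3% to 19.23% of them. The liver label was borne out by its markers: the 12 hepatocyte markers summed to 111000 to 141000 CPM in the 6 libraries. Of 19571 genes tested with edgeR's quasi-likelihood test and Benjamini-Hochberg adjustment, 2530 (12.9%) passed an adjusted p of 0.05. Of all genes tested, 1377 (7.04%) were higher and 1153 (5.89%) lower in 5% therapy, and 721 (3.68%) were higher and 373 (1.91%) lower by at least 1 on the log2 scale. Scaling by library totals moved the median of all genes from 0.01 to 0.11 on the log2 scale and the split to 1965 higher and 786 lower. Without 5% therapy replicate 2 the counts were 720 higher and 695 lower, and without normal diet replicate 3 they were 825 and 763. Changes below are log2 fold changes, 5% therapy over normal diet, with standard errors (SE), and each list is read against the shares and the median of all genes. Members named from a list are mostly those with the smallest p, a choice that favours groups without overlap.

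Libraries of 1 group were not alike in the genes of non-parenchymal cells. Markers of monocyte-derived macrophages summed to 467, 605 and 168 CPM in 5% therapy replicates 1, 2 and 3, and to 142, 147 and 118 CPM on normal diet. Replicate 3 was thus close to the control livers. It was the lowest of the 3 treated libraries for 12 of 13 monocyte-derived macrophage markers, 22 of 24 interstitial matrix genes and 18 of 20 interferon and MHC class II genes, but for 0 of 20 cholesterol synthesis genes. Replicate 2 was the highest of the 3 for 12 of 13, 20 of 24 and 16 of 20 members of the same lists. Among controls, replicate 2 stood apart for Gpnmb, a glycoprotein of lipid-laden macrophages (0.164, 42.5 and 0.14 CPM), and replicate 1 for Jchain, the joining chain of plasma cell immunoglobulins (37, 2.82 and 1.71 CPM). Results that rest on these libraries are given with and without them.

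**Figure D1:**
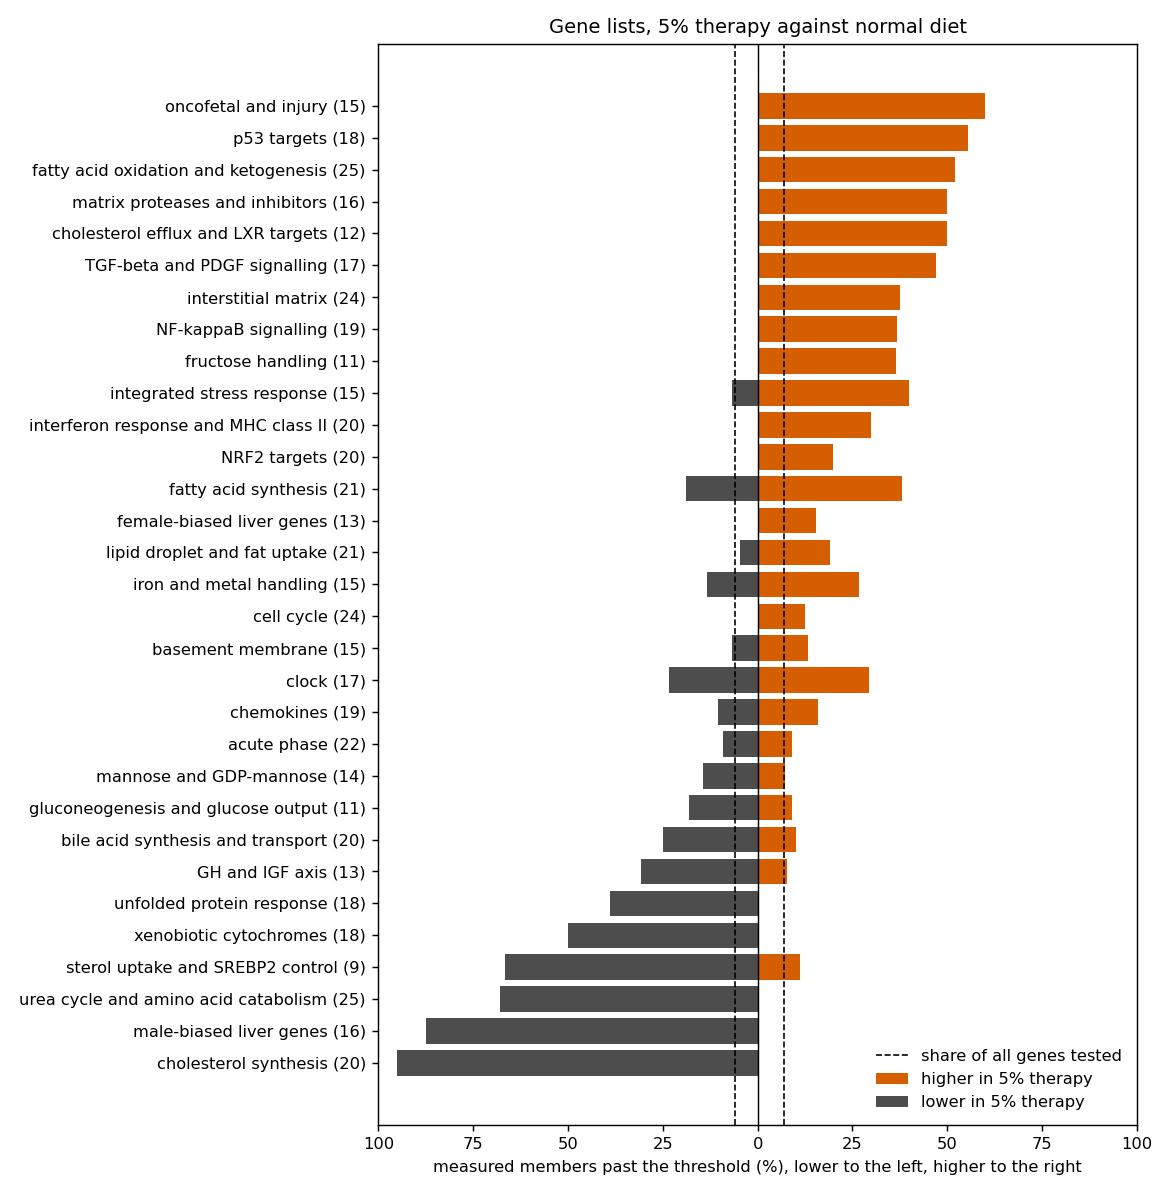
Share of the measured members of each pathway list (number in brackets) that passed the threshold in 5% therapy against normal diet, higher to the right and lower to the left, in percent; dashed lines mark the shares of all genes tested, 7.04% higher and 5.89% lower. Cholesterol synthesis, male-biased genes and amino acid catabolism reach far to the left, and oncofetal genes, p53 targets and fatty acid oxidation to the right.

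Most of the 10 steepest rises, which were chosen among genes whose groups did not overlap, were in genes with low levels on normal diet. Eda2r, a receptor for ectodysplasin A2 of the tumour necrosis factor receptor family (chromosome X, 96377446 to 96420822, GRCm39), stood at 0.384, 0.157 and 0.14 CPM on normal diet and at 6.14, 18 and 6.66 CPM in 5% therapy. Rad51b, a gene of homologous recombination repair (chromosome 12, 79344056 to 79861464), stood at 0.559 to 0.575 CPM and at 25.7, 21.7 and 27.3 CPM. The groups did not overlap for either gene, and they rose by 5.46 (SE 0.43) and 5.44 (SE 0.28), 43.9-fold and 43.5-fold (adjusted p 1.18e-07 and 2.71e-10). Slc35f2, a solute carrier, was the tightest of the set, with 0.438, 0.522 and 0.28 CPM on normal diet and 10.8, 11.4 and 11 CPM in 5% therapy, a rise of 4.70 (SE 0.20, adjusted p 1.52e-11).

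Secreted and metabolic signals stood among the same 10 rises. Fgf21, a liver hormone of fasting and nutrient stress, was at 0.11, 0.993 and 0.42 CPM on normal diet and at 12.6, 17.6 and 19.5 CPM in 5% therapy (4.99, SE 0.68, adjusted p 6e-05). Apoa4, an apolipoprotein of triglyceride-rich particles, was at 17.3, 17.6 and 21.2 CPM and at 521, 531 and 326 CPM (4.62, SE 0.30, adjusted p 1.15e-08). Every treated liver was above every control liver for both, as the choice of these 10 rises required. Rgs16, which shuts off G protein signals, rose by 4.80 (SE 0.59), Espn, an actin-bundling protein, by 4.52 (SE 0.37), Ly6d, a surface protein of the Ly6 family, by 4.39 (SE 0.38), and Fam83a by 4.25 (SE 0.48). Dbp, a clock-driven transcription factor, is described with the clock genes.

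The 10 steepest falls, chosen by the same rule, included genes of male liver, retinoid and steroid metabolism and transport. Susd4, a membrane regulator of complement (chromosome 1, 182591425 to 182724156, GRCm39), went from 49, 47.1 and 47.5 CPM to 0.543, 1.26 and 0.574 CPM, a fall of 60-fold (log2 change -5.91, SE 0.44, adjusted p 5.73e-08). Hsd3b5, a male-specific hydroxysteroid dehydrogenase, went from 291, 356 and 313 CPM to 4.96, 15.9 and 7.67 CPM (-5.07, SE 0.53, adjusted p 2.89e-06). No treated library came near a control library. Cyp26a1, the enzyme that clears retinoic acid, went from 172, 50 and 46.9 CPM to 8.55, 2.38 and 9.4 CPM (-3.73, SE 0.52, adjusted p 8.16e-05). Slc13a2, a sodium-coupled transporter of dicarboxylates, changed by -5.04 (SE 0.71), Srgap3, a GTPase-activating protein, by -4.09 (SE 0.46), Chic1 by -4.01 (SE 0.49), and Slc22a28, of the organic anion transporter family, by -3.66 (SE 0.42).

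Serpina1e, a form of alpha-1-antitrypsin, and Selenbp2, a selenium-binding protein, belong to groups of near-identical copies, so their levels are uncertain. Serpina1e read 11000, 14500 and 10700 CPM on normal diet and 114, 337 and 450 CPM in 5% therapy (-5.33, SE 0.73), and Selenbp2 826, 956 and 1600 CPM against 27.2, 46.3 and 17.5 CPM (-5.22, SE 0.52). All 20 of these genes kept their call and direction under each of 14 alternatives, with the highest adjusted p at 0.0361 for a rise and 0.00308 for a fall. FAT-MASH without mannose, which was tested against the same normal diet libraries, had Eda2r at 10.2 to 11.9 CPM, Rad51b at 22.5 to 41.7 CPM, Susd4 at 0.687 to 1.02 CPM and Hsd3b5 at 3.55 to 12 CPM, while Rgs16, at 74.3 to 180 CPM beside 37.9 to 52.3 CPM in 5% therapy, stood higher there.

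**Figure D2:**
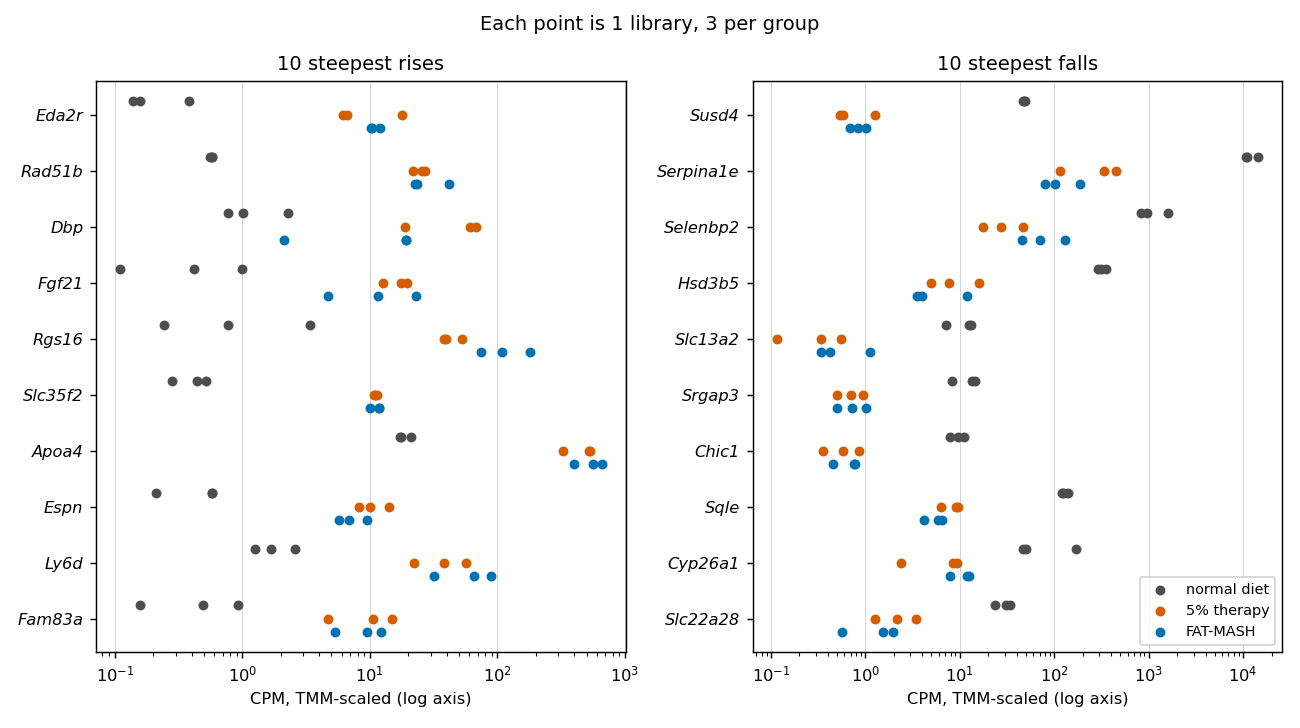
CPM (log axis) of the 10 steepest rises and 10 steepest falls in each library, 3 per group, on normal diet, in 5% therapy and in FAT-MASH without mannose. The genes were chosen for groups that do not overlap; Rad51b, for one, is at 0.559 to 0.575 CPM on normal diet and at 21.7 to 27.3 CPM in 5% therapy.

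The cholesterol pathway fell from one end to the other. Of 20 measured synthesis genes, 19 were lower and 0 higher, with a median change of -2.08 beside 0.01 for all genes tested; their summed level went from 4940, 4820 and 5290 CPM to 1740, 2150 and 2130 CPM. Promoters of 4 of the 6 members with the smallest p are shown because CCAAT, the box bound by NF-Y, a partner of SREBP2, recurs in them. They are RefSeq sequences of GRCm38.p6, the 250 bases before the start site on the gene's own strand, with matches to CCAAT on either strand (CCAAT or ATTGG) and to the sterol element TCACNCCAC in capitals.
Hmgcs1, chr13:119690101-119690350, plus strand: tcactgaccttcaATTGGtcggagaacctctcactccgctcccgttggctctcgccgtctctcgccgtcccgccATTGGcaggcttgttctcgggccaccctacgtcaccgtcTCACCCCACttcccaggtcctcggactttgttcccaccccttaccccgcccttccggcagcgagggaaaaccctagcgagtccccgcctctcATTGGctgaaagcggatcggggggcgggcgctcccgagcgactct
Msmo1, chr8:64733579-64733828, minus strand: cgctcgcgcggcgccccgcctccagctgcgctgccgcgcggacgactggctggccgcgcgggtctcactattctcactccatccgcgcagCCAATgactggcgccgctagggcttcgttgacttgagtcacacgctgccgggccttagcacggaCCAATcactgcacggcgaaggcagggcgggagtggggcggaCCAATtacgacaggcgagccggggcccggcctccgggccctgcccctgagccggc
Hsd17b7, chr1:169969206-169969455, minus strand: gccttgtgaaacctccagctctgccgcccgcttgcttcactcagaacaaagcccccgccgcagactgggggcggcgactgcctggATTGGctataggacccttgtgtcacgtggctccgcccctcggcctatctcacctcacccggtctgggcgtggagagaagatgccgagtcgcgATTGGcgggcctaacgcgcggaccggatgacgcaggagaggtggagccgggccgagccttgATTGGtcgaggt
Lss, chr10:76531355-76531604, plus strand: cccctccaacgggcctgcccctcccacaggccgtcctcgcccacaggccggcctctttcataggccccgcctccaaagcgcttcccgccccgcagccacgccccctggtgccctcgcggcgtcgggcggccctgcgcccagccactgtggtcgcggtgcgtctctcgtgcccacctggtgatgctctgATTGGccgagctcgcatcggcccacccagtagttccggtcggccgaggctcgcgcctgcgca

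In windows of 300 bases (250 before and 50 after a start site), CCAAT on either strand was found for 14 of the 15 cholesterol synthesis genes with a window (93.3%) and for 11096 of all 27025 genes (41.1%). The share was also high, 18 of 20 (90%), in the cell cycle list, of which 3 of 24 members were called. The sterol element TCACNCCAC, which does not overlap CCAAT, was found for 1 of the 15, Hmgcs1, where it starts 137 bases before the start site as TCACCCCAC, for 0 of 7 genes of sterol uptake and SREBP2 control, and for 388 of all genes (1.44%). In Hmgcs1 the CCAAT matches begin 237, 176 and 45 bases before the start site. A match is a description of the letters and not a measured binding site.

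Early and late steps of the pathway both fell. Hmgcs1, which makes the HMG-CoA, stood at 764, 725 and 982 CPM on normal diet and at 121, 179 and 180 CPM in 5% therapy (-2.36, SE 0.17, adjusted p 3.1e-08). Sqle, squalene epoxidase, fell the most, from 121, 123 and 140 CPM to 6.35, 9.6 and 9.05 CPM (-3.93, SE 0.26, adjusted p 1.53e-08). For both enzymes the lowest control library was at least several times the highest treated one. Of the later steps, Lss, which closes the sterol ring, changed by -1.94 (SE 0.15), Msmo1, a methyl sterol oxidase, by -3.47 (SE 0.17), and Hsd17b7, a sterol ketone reductase, by -1.98 (SE 0.12). The count was 18 or 19 of 20 under every alternative.

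**Figure D3:**
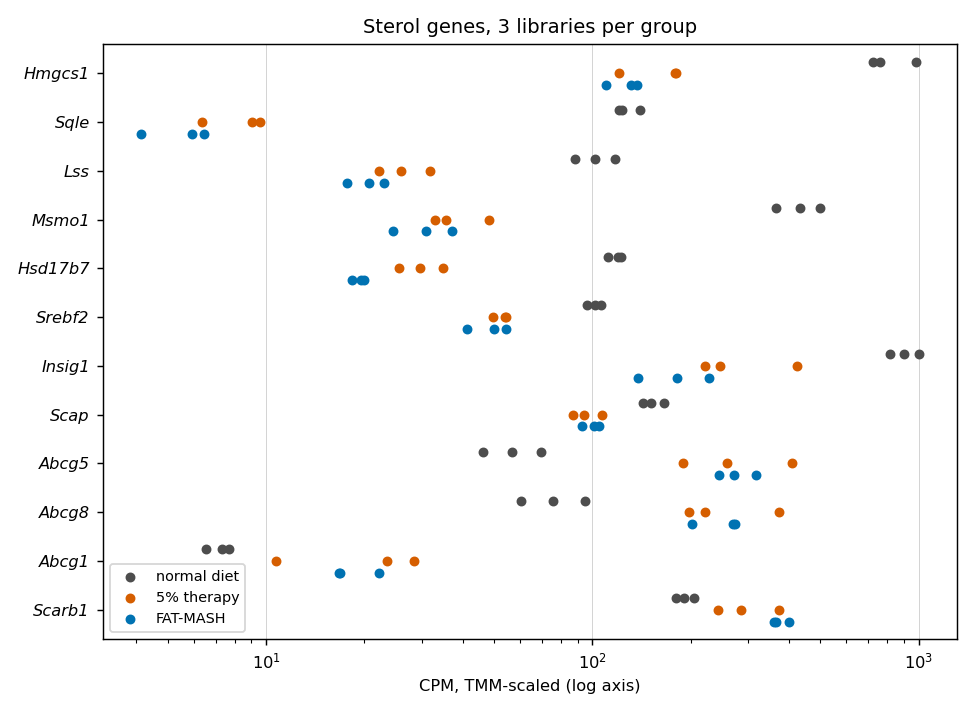
CPM (log axis) of genes described in the text, on normal diet, in 5% therapy and in FAT-MASH without mannose, 1 point per library. From top to bottom they belong to cholesterol synthesis, its control, and sterol efflux and LXR targets. From Hmgcs1 to Scap, genes of synthesis and control, the 3 normal diet points lie to the right of those of 5% therapy. For the genes below, from Abcg5 to Scarb1, the normal diet points lie to the left.

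Sterol uptake and SREBP2 control followed, with 6 of 9 members lower and 1 higher (median -0.70). Srebf2, which encodes SREBP2, read 106, 102 and 96.2 CPM and 54, 49.4 and 54.2 CPM (-0.95, SE 0.11, adjusted p 8.08e-06). Insig1, which retains SREBP in the endoplasmic reticulum, changed by -1.61 (SE 0.22), and Scap, the SREBP escort, by -0.68 (SE 0.12). In FAT-MASH without mannose, 19 synthesis genes and 6 genes of uptake and control were lower than on the same normal diet libraries, with medians of -2.37 and -1.06 (background in that comparison 5.92% lower and 7.81% higher).

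The list of sterol efflux genes and LXR targets had 6 of 12 higher, 0 lower and a median of 0.48. Abcg5 and Abcg8, the pair of half-transporters that export sterols into bile, rose most. Abcg5 stood at 56.7, 69.6 and 46.3 CPM on normal diet and at 408, 189 and 258 CPM in 5% therapy (2.31, SE 0.26, adjusted p 6.29e-06). Abcg8 stood at 75.5, 95.1 and 60.4 CPM and at 374, 198 and 222 CPM (1.78, SE 0.26, adjusted p 0.000107). Treated libraries were all above controls for both, and replicate 1 was the highest. Abcg1, which loads sterol onto high-density lipoprotein, rose by 1.53 (SE 0.28) and Scarb1, the receptor for that lipoprotein, by 0.65 (SE 0.13). The other higher members, Soat1 and Soat2, are not exporters. Soat1 lost its call without 5% therapy replicate 2 (1.03, adjusted p 0.09). Soat2 lost it in several alternatives, among them the 2 groups alone (0.66, adjusted p 0.0778).

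Fat synthesis was split rather than uniformly raised. Of 21 measured members, 8 were higher and 4 lower (median 0.34), and the lower count was 2 without 5% therapy replicate 2, 5% therapy replicate 3 or normal diet replicate 1. Scd1, the desaturase that makes oleate, stood at 7260, 8920 and 5000 CPM on normal diet and at 23200, 28800 and 24100 CPM in 5% therapy (1.85, SE 0.20, adjusted p 4.42e-06), with no overlap. Pnpla3, a lipid droplet lipase known for its human risk allele, went from 1.01, 1.46 and 0.699 CPM to 3.16, 5.21 and 5.13 CPM (2.07, SE 0.36, adjusted p 0.000648). Pklr, liver pyruvate kinase, went from 133, 175 and 143 CPM to 437, 263 and 313 CPM (1.17, SE 0.21, adjusted p 0.000976).

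Elongases and the first committed step moved with Scd1. Elovl5 rose by 1.53 (SE 0.21), Elovl6 by 1.22 (SE 0.19) and Acaca, acetyl-CoA carboxylase, by 1.04 (SE 0.16), whereas Acss2, which activates acetate and is a target of SREBP, changed by -1.54 (SE 0.20). Fasn, fatty acid synthase, did not pass, with 872, 1080 and 1200 CPM on normal diet and 1990, 1110 and 1190 CPM in 5% therapy (0.44, SE 0.29, adjusted p 0.366). Only replicate 1 was above all controls. Mlxipl, which encodes the sugar-sensing factor ChREBP, read 553, 537 and 683 CPM and 480, 402 and 619 CPM (-0.24, SE 0.20, adjusted p 0.499).

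Fatty acid oxidation and ketogenesis had 13 of 25 members higher and 0 lower (median 0.44). Cyp4a14, a fatty acid omega-hydroxylase and target of PPAR alpha, went from 67, 47 and 39.3 CPM to 297, 379 and 879 CPM (3.34, SE 0.40, adjusted p 1.32e-05), and Cyp4a10 rose by 2.04 (SE 0.24); the Cyp4a genes share sequence, so their separate levels are uncertain. Cpt1a, the gate of mitochondrial import, stood at 264, 247 and 228 CPM on normal diet and at 385, 504 and 422 CPM in 5% therapy (0.83, SE 0.13, adjusted p 0.000337). Bdh1, which interconverts the ketone bodies, rose by 1.05 (SE 0.12) and Ehhadh, of peroxisomal oxidation, by 1.09 (SE 0.19). For each of these 5 genes the lowest treated library lay above the highest control.

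Of 21 lipid droplet and fat uptake genes, 4 were higher and 1 lower (median 0.13), with 2 higher without 5% therapy replicate 2 and 2 lower without normal diet replicate 3. Lpl, lipoprotein lipase, stood at 30.4, 51 and 30.8 CPM on normal diet and at 240, 263 and 167 CPM in 5% therapy (2.58, SE 0.29, adjusted p 8.22e-06). Fitm1, a fat storage-inducing protein, fell from 105, 82.3 and 46.5 CPM to 5.5, 10.1 and 9.2 CPM (-3.23, SE 0.42, adjusted p 3.95e-05). Cd36, a fatty acid translocase, went from 89.8, 80 and 37 CPM to 166, 208 and 93.9 CPM (1.18, SE 0.28, adjusted p 0.00877), a call lost without 5% therapy replicate 2 (0.91, adjusted p 0.0679). The treated range for Cd36 began just above the highest control.

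Fructose handling had 4 of 11 members higher and 0 lower (median 0.19), and 2 of 11 without 5% therapy replicate 1 or normal diet replicate 1. Tkfc, triokinase, stood at 325, 396 and 429 CPM and at 808, 545 and 605 CPM (0.77, SE 0.15, adjusted p 0.00211). The groups did not overlap.

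The calls of the transporter and the kinase were less firm. Slc2a2, the hepatic hexose carrier, went from 243, 286 and 288 CPM to 470, 348 and 365 CPM (0.53, SE 0.14, adjusted p 0.016) and lost its call without 5% therapy replicate 1 (0.38, adjusted p 0.107) or normal diet replicate 1 (0.45, adjusted p 0.0823) and with all 25 libraries and a batch term (0.51, adjusted p 0.116). Khk, ketohexokinase, went from 447, 491 and 561 CPM to 900, 567 and 698 CPM (0.53, SE 0.17, adjusted p 0.046). The Khk call was lost in 7 of 14 alternatives, among them leaving out 5% therapy replicate 1 (0.33, adjusted p 0.264) or 3 (0.55, adjusted p 0.0684) or normal diet replicate 1 (0.45, adjusted p 0.165), 2 (0.51, adjusted p 0.121) or 3 (0.62, adjusted p 0.0571). Slc2a5, the intestinal-type fructose carrier, read 6.58, 6.24 and 4.83 CPM and 11, 7.28 and 8.19 CPM and did not pass (0.58, SE 0.34, adjusted p 0.309).

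Most genes of mannose use did not pass. Of 14 members, 1 was higher (7.14%) and 2 lower (14.3%), beside 7.04% and 5.89% of all genes tested (median 0.08). Higher calls were 0 without 5% therapy replicate 1 or 2 or normal diet replicate 1 or 2, and lower calls 1 under library totals and without 5% therapy replicate 2 or normal diet replicate 2 or 3. Mpi, which converts mannose 6-phosphate to fructose 6-phosphate, read 14.7, 13.7 and 17.1 CPM on normal diet and 16.5, 13.4 and 12.7 CPM in 5% therapy (-0.10, SE 0.15, adjusted p 0.753). Pmm2, the phosphomannomutase of glycosylation, read 58.6, 64.9 and 72 CPM and 61, 49.7 and 59.8 CPM (-0.20, SE 0.10, adjusted p 0.2). Its paralogue Pmm1 was the exception and fell from 11.3, 7.58 and 5.42 CPM to 1.66, 2.22 and 2.05 CPM (-2.03, SE 0.43, adjusted p 0.00366), with FAT-MASH without mannose at 1.24 to 1.72 CPM.

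Of 11 genes of glucose output, 1 was higher and 2 lower (median 0.00), and 4 were lower without 5% therapy replicate 1. Pck2, mitochondrial PEP carboxykinase, rose from 5.26, 6.22 and 5.42 CPM to 16.6, 16.3 and 19.3 CPM (1.63, SE 0.13, adjusted p 1.55e-07). G6pc, glucose 6-phosphatase, ranged from 236 to 661 CPM among the treated libraries around 371 to 473 CPM in controls and did not pass (-0.10, SE 0.25, adjusted p 0.847), although without 5% therapy replicate 1, the highest, it was lower (-0.67, adjusted p 0.015).

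Male-biased liver genes, kept on by pulsatile growth hormone through STAT5B, fell together: 14 of 16 were lower and 0 higher, with a median of -1.72. Their summed level was 18900, 23000 and 20200 CPM on normal diet and 3110, 4020 and 4140 CPM in 5% therapy. Serpina1e, whose level is uncertain, made up the larger part of each normal diet sum. The sums therefore do not describe the 16 genes evenly. Besides Susd4, Hsd3b5, Selenbp2, Serpina1e and Slc22a28, Cyp7b1, an oxysterol hydroxylase, went from 384, 420 and 496 CPM to 51.6, 70.1 and 73 CPM (-2.74, SE 0.29, adjusted p 3.5e-06). Female-biased genes had 2 of 13 higher (1 without normal diet replicate 3) and 0 lower, with a median of 0.65. Their summed level was 32.8, 29.2 and 17.3 CPM on normal diet and 111, 79.3 and 78 CPM in 5% therapy. Of the higher genes, Abcd2, a peroxisomal transporter of very long acyl chains, went from 10.5, 7.68 and 1.96 CPM to 37, 42 and 33.8 CPM (2.47, SE 0.33, adjusted p 4.94e-05).

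The growth hormone axis itself had 4 of 13 members lower and 1 higher (median -0.24), and 2 lower and 0 higher without 5% therapy replicate 1. Ghr, the receptor, stood at 744, 810 and 809 CPM on normal diet and at 562, 513 and 471 CPM in 5% therapy (-0.61, SE 0.11, adjusted p 0.000833). Igfals, which stabilises circulating IGF-1, stood at 162, 140 and 169 CPM and at 87.7, 48.6 and 81.1 CPM (-1.12, SE 0.20, adjusted p 0.000902). Controls and treated libraries were separate for both.

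Pericentral hepatocyte markers, which depend on Wnt signals from the central vein, had 10 of 15 lower and 0 higher (median -0.83). Oat, ornithine aminotransferase, went from 1350, 1080 and 973 CPM to 70.2, 217 and 118 CPM (-3.07, SE 0.33, adjusted p 4.95e-06). Glul, glutamine synthetase, went from 1100, 1100 and 889 CPM to 296, 477 and 411 CPM (-1.38, SE 0.19, adjusted p 6.18e-05). Cyp1a2, a pericentral cytochrome, changed by -1.71 (SE 0.27), and Lhpp, a phosphatase of the same zone, by -2.62 (SE 0.27). In bulk liver, fewer cells of a type and less RNA per cell cannot be told apart.

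Periportal markers were mixed, with 2 of 14 higher and 5 lower (median -0.41), the lower count being 2 without 5% therapy replicate 2 and 3 without normal diet replicate 3. Ass1, argininosuccinate synthase, fell from 1520, 1440 and 1870 CPM to 755, 533 and 773 CPM (-1.23, SE 0.18, adjusted p 0.000163), while Hsd17b13, a lipid droplet dehydrogenase, rose from 386, 389 and 464 CPM to 714, 547 and 735 CPM (0.69, SE 0.16, adjusted p 0.00614). Of the 12 general hepatocyte markers, 3 were lower and 0 higher, and 5 were lower without 5% therapy replicate 3.

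Amino acid catabolism and the urea cycle had 17 of 25 members lower and 0 higher (median -0.65). Tat, tyrosine aminotransferase, went from 1320, 1650 and 2060 CPM to 764, 491 and 560 CPM (-1.47, SE 0.22, adjusted p 0.000178). Prodh, proline dehydrogenase, went from 312, 273 and 334 CPM to 154, 100 and 127 CPM (-1.27, SE 0.15, adjusted p 9.99e-06), and Asl, argininosuccinate lyase, changed by -0.98 (SE 0.14). Replicate 2 was the lowest of the 3 treated livers for 18 of the 25 members. Without it 9 members were lower, and without normal diet replicate 3 it was 11.

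Xenobiotic cytochromes had 9 of 18 members lower and 0 higher (median -0.60). Cyp2c29 stood at 2160, 1880 and 1740 CPM on normal diet and at 497, 381 and 485 CPM in 5% therapy (-2.08, SE 0.23, adjusted p 5.95e-06), and Cyp2b10, the classic target of the xenobiotic receptor CAR, at 18.6, 5.72 and 28.2 CPM and at 2.44, 1.31 and 1.42 CPM (-3.36, SE 0.62, adjusted p 0.00119). Cyp2c50 and Cyp2c54 changed by -2.15 (SE 0.22) and -2.51 (SE 0.32), with the caution that Cyp2c genes share sequence. Bile acid genes had 5 of 20 lower and 2 higher (median -0.11), and 1 higher without any 1 of the 6 libraries. Cyp7a1, the rate-limiting enzyme of bile acid synthesis, read 95.4, 56.6 and 67.7 CPM on normal diet and 123, 157 and 91.6 CPM in 5% therapy and did not pass (0.76, SE 0.29, adjusted p 0.0964), whereas Abcb4, the canalicular phospholipid flippase, rose by 0.76 (SE 0.14) and Cyp27a1, of the alternative pathway, changed by -0.83 (SE 0.14).

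Among p53 targets 10 of 18 were higher and 0 lower (median 0.71). Phlda3, a repressor of AKT, stood at 2.03, 0.993 and 1.47 CPM on normal diet and at 7.09, 13.6 and 7.69 CPM in 5% therapy (2.66, SE 0.43, adjusted p 0.000401). Bax, a pore-former of apoptosis, stood at 17, 17 and 18.6 CPM and at 30.8, 27.5 and 30 CPM (0.75, SE 0.13, adjusted p 0.000554). Tnfrsf10b, a death receptor, rose by 2.22 (SE 0.37) and Zmat3, an RNA-binding target of p53, by 1.09 (SE 0.18). Cdkn1a, the cell cycle inhibitor p21, went from 9.01, 8.99 and 9.69 CPM to 13.2, 41.3 and 22.4 CPM (1.48, SE 0.35, adjusted p 0.00765), and its call was lost without 5% therapy replicate 2 (0.95, adjusted p 0.0796) and under voom (1.26, adjusted p 0.0715). FAT-MASH without mannose held 93.3, 34.4 and 68.5 CPM of Cdkn1a, and the direct difference from it did not pass (-1.35, SE 0.33, adjusted p 0.221).

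Stress pathways of translation and protein folding diverged. The integrated stress response had 6 of 15 higher and 1 lower (median 0.94, and 2 lower without normal diet replicate 3). Besides Fgf21, Psat1, of serine synthesis, went from 0.877, 0.731 and 0.979 CPM to 2.78, 3.79 and 5.78 CPM (2.27, SE 0.36, adjusted p 0.00032), Nupr1, a stress regulator of chromatin, rose by 2.14 (SE 0.35), and Atf5 by 0.73 (SE 0.16). The lower member was Atf4, the transcription factor of this response, with 203, 190 and 227 CPM on normal diet and 122, 92.4 and 144 CPM in 5% therapy (-0.79, SE 0.18, adjusted p 0.00563). Gdf15, a stress-induced hormone, did not pass, at 18.5, 24.7 and 12 CPM and 13.6, 22.4 and 17.5 CPM (-0.04, SE 0.25, adjusted p 0.943). FAT-MASH without mannose held 39.5, 42.5 and 31.8 CPM of Gdf15, all above the 3 treated livers, and this difference did not pass either (-1.09, SE 0.25, adjusted p 0.136).

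Unfolded protein response genes had 7 of 18 lower and 0 higher (median -0.23), and the count was 2 without 5% therapy replicate 2 or normal diet replicate 2, 3 without 5% therapy replicate 1 and 4 without normal diet replicate 3. Calr, calreticulin, stood at 917, 986 and 1060 CPM on normal diet and at 667, 557 and 638 CPM in 5% therapy (-0.67, SE 0.11, adjusted p 0.000424). Sdf2l1, a partner of the chaperone BiP, changed by -0.85 (SE 0.16). NRF2 targets had 4 of 20 higher and 0 lower (median 0.60), led by Nfe2l2 itself, the antioxidant factor NRF2 (0.82, SE 0.14, adjusted p 0.000702); the count fell to 1 without 5% therapy replicate 3 or normal diet replicate 3 and to 2 without 5% therapy replicate 2 or normal diet replicate 1 or 2.

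Most injury-associated genes rose, and few cell cycle genes did. Of 15 oncofetal and injury genes, 9 were higher and 0 lower, among them Gpc3, a fetal liver glypican (0.603, 1.57 and 0.559 CPM to 6.79, 6.87 and 2.14 CPM; 2.50, SE 0.51, adjusted p 0.00292) and Anxa2, an annexin (1.26, SE 0.26). Among 24 measured cell cycle genes 3 rose and 0 fell (median 0.59; 1 rose under voom and 8 with no filter on low counts). They included Ccnd1, cyclin D1, with 9.64, 8.41 and 7.34 CPM on normal diet and 16.6, 26.2 and 27.3 CPM in 5% therapy (1.46, SE 0.29, adjusted p 0.00208), and Cdk1, the mitotic kinase (1.25, SE 0.28, adjusted p 0.0055), whose call was lost under voom (1.21, adjusted p 0.142). Mki67, a marker of dividing cells, read 6.27, 2.51 and 1.96 CPM and 2.58, 7 and 2.14 CPM, with overlapping groups (0.11, SE 0.49, adjusted p 0.923).

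Most markers of monocyte-derived macrophages rose, with replicate 3 the lowest of the treated livers for 12 of 13. Of 13 markers of monocyte-derived macrophages, 11 were higher and 0 lower (median 1.77), and 7 were higher without 5% therapy replicate 2. Adgre1, the F4/80 antigen, stood at 9.23, 7.16 and 6.71 CPM on normal diet and at 34.6, 42.2 and 11.5 CPM in 5% therapy (1.93, SE 0.40, adjusted p 0.00318). Ccr2, the receptor that draws monocytes from blood, stood at 3.26, 1.59 and 0.629 CPM and at 8.01, 12.3 and 5.01 CPM (2.18, SE 0.44, adjusted p 0.00229). Replicate 3 was the lowest treated liver for both and was still above the highest control. How much of these rises comes from the number of macrophages was not tested.

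Lipid-associated macrophage genes had 10 of 20 higher and 0 lower (median 1.11), and 6 without 5% therapy replicate 2. Trem2, the lipid receptor that defines these cells, stood at 0.658, 3.34 and 0 CPM on normal diet and at 13.1, 16.4 and 5.24 CPM in 5% therapy (3.05, SE 0.70, adjusted p 0.00643). Cd63, a lysosomal tetraspanin, stood at 2.85, 4.34 and 2.59 CPM and at 37.4, 34.1 and 16.7 CPM (3.16, SE 0.30, adjusted p 7.99e-07). The treated livers were above all controls for both. Gpnmb did not pass, with 38.5, 71.9 and 8.96 CPM in 5% therapy beside the control library at 42.5 CPM (1.46, SE 1.05, adjusted p 0.425), and without normal diet replicate 2 it was higher by 7.98 (adjusted p 0.000297).

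Resident Kupffer cell markers had 4 of 15 higher and 1 lower (median 0.68). The higher count was 7 without 5% therapy replicate 3 and 2 without 5% therapy replicate 1 or 2 or normal diet replicate 2, and the lower count 0 without 5% therapy replicate 3 or normal diet replicate 2 or 3. Cd5l, a scavenger protein of Kupffer cells, stood at 69.9, 50.6 and 66.7 CPM on normal diet and at 343, 316 and 94.3 CPM in 5% therapy (2.01, SE 0.38, adjusted p 0.00143). Of 10 neutrophil markers 4 were higher, and 1 without 5% therapy replicate 2 or normal diet replicate 3; their summed level was 9.23, 10.7 and 8.81 CPM and 30.7, 53.9 and 17.3 CPM. Lymphocyte markers had few calls. Of 17 T and NK cell markers 0 were higher and 1, Cd4, was lower (3.7, 2.98 and 3.78 CPM to 0.407, 0.657 and 0.383 CPM; -2.84, SE 0.56, adjusted p 0.00216), and of 11 B and plasma cell markers the only call was Jchain (-2.51, SE 0.74, adjusted p 0.0295). The Jchain call was lost without any 1 treated library (-2.21, adjusted p 0.112, -2.71, adjusted p 0.0755 and -2.67, adjusted p 0.0527 for replicates 1, 2 and 3), and without normal diet replicate 1 the change was 0.09.

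**Figure D4:**
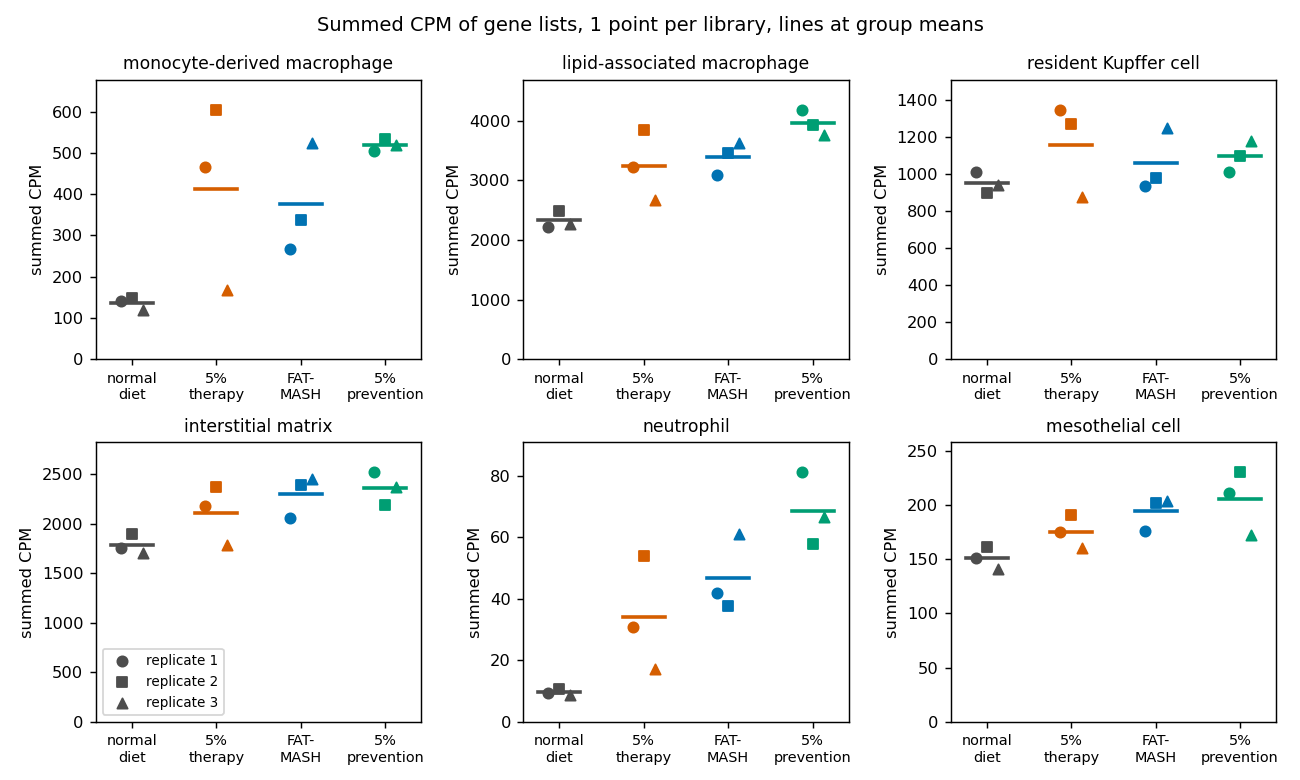
Summed CPM of 6 gene lists in each library, with lines at the group means and replicates 1, 2 and 3 as circles, squares and triangles, on normal diet, in 5% therapy, in FAT-MASH without mannose and in 5% prevention. Replicate 3 of 5% therapy lies near the normal diet libraries for monocyte-derived macrophage markers (168 CPM beside 118 to 147) and is the lowest treated library in every panel.

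Most inflammatory signalling genes did not pass, but the shares that were higher stood above the 7.04% of all genes tested. They were 36.8% for NF-kappaB signalling, 30% for interferon and MHC class II and 15.8% for chemokines. Macrophage markers summed to 467, 605 and 168 CPM in the treated livers, and their part in the calls that were made was not tested. NF-kappaB signalling had 7 of 19 higher and 0 lower (median 0.36): Icam1, an adhesion molecule, went from 7.53, 5.93 and 6.82 CPM to 16.3, 18.3 and 11.9 CPM (1.20, SE 0.22, adjusted p 0.000972) and Il1rn, the interleukin-1 receptor antagonist, rose by 2.01 (SE 0.38). The interferon and MHC class II list had 6 of 20 higher and 0 lower (median 0.60), with 3 without 5% therapy replicate 1 or normal diet replicate 2 and 2 without 5% therapy replicate 2. Chemokines had 3 of 19 higher and 2 lower (median 1.00), led by Ccl6 (7.29, 6.32 and 5.28 CPM to 24.4, 31.8 and 7.81 CPM; 1.75, SE 0.39, adjusted p 0.00558). The summed level of the chemokines was 544, 543 and 484 CPM on normal diet and 419, 491 and 388 CPM in 5% therapy. Only 1 chemokine was higher without 5% therapy replicate 2 or normal diet replicate 1 or 3, and 0 were lower under library totals or without 5% therapy replicate 1 or 3.

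Acute phase genes had 2 of 22 higher and 2 lower (median 0.18), with 1 higher without 5% therapy replicate 1 or 2 or normal diet replicate 1 or 2, and 1 lower without any 1 library but 5% therapy replicate 1. Saa4 changed by -0.68 (SE 0.15, adjusted p 0.0049) and Saa3 rose by 1.84 (SE 0.45, adjusted p 0.00977), a call lost under voom (1.68, adjusted p 0.0754) and without 5% therapy replicate 2 (1.24, adjusted p 0.0954). The Saa genes share sequence, so these levels are uncertain.

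A minority of the interstitial matrix genes passed, but the share that was higher, 37.5%, stood above the 7.04% of all genes tested. Of 24 interstitial matrix genes, 9 were higher and 0 lower (median 1.00); the count was 4 without 5% therapy replicate 2, 5 without normal diet replicate 1, 3 without normal diet replicate 3 and 19 with no filter on low counts. Col5a2, a collagen V chain, stood at 1.86, 4.44 and 2.03 CPM on normal diet and at 10.6, 13.1 and 7.18 CPM in 5% therapy (1.88, SE 0.39, adjusted p 0.00313). Lum, the proteoglycan lumican, stood at 8.44, 11.5 and 9.79 CPM and at 33.1, 39.5 and 21.6 CPM (1.66, SE 0.38, adjusted p 0.00629). Both kept the order of the replicates seen for macrophages, with replicate 3 the lowest.

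Col1a1, the main chain of scar collagen, stood at 9.4, 17.3 and 4.13 CPM on normal diet and at 38.4, 36.1 and 17.9 CPM in 5% therapy. The groups did not overlap but the difference did not pass (1.57, SE 0.55, adjusted p 0.0674); it passed without 5% therapy replicate 3 (1.84, adjusted p 0.0411), without normal diet replicate 2 (2.17, adjusted p 0.0344), with the 2 groups alone (adjusted p 0.0391) and with no filter on low counts (adjusted p 3.15e-28). Timp1, an inhibitor of matrix proteases, went from 0.164, 0.313 and 0.21 CPM to 1.22, 2.43 and 0.459 CPM (2.54, SE 0.72, adjusted p 0.0247). That call was lost without 5% therapy replicate 2 (1.79, adjusted p 0.181) or normal diet replicate 1 (2.33, adjusted p 0.0915), 2 (2.85, adjusted p 0.052) or 3 (2.48, adjusted p 0.0828), under voom (2.13, adjusted p 0.266) and with all 25 libraries and a batch term (2.52, adjusted p 0.057). Acta2, smooth muscle actin of myofibroblasts, read 5.53, 14 and 3.78 CPM and 5.91, 4.35 and 8.61 CPM (-0.31, SE 0.51, adjusted p 0.765).

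Among proteases and growth factor signalling genes, the counts also depended on 5% therapy replicate 2. Matrix proteases and inhibitors had 8 of 16 higher and 0 lower (median 1.07), with 3 without 5% therapy replicate 2 and 5 without normal diet replicate 1 or 3; Mmp14, a membrane-bound protease, went from 28, 36.6 and 32.3 CPM to 72.2, 70 and 53.2 CPM (1.01, SE 0.14, adjusted p 7.83e-05). TGF-beta and PDGF signalling had 8 of 17 higher and 0 lower (median 0.59), with 2 to 5 when 5% therapy replicate 1 or 2 or any control was left out (4, 2, 3, 4 and 5 in that order). Tgfbr1, the type I receptor, rose by 0.84 (SE 0.13, adjusted p 0.000192) and Pdgfa by 0.91 (SE 0.14, adjusted p 0.000276). Stellate cell markers had 3 of 15 higher and 1 lower (median 0.10), the higher count being 0 without 5% therapy replicate 2 or normal diet replicate 2 or 3, 1 without 5% therapy replicate 1 or normal diet replicate 1, and 5 without 5% therapy replicate 3. Basement membrane genes had 2 of 15 higher and 1 lower (median 0.44), with 5 higher without 5% therapy replicate 3 and 0 lower without 5% therapy replicate 1 or any 1 control. Nid1, nidogen, rose by 1.26 (SE 0.19) and Lamc1, a laminin chain, by 0.71 (SE 0.14).

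Markers of the cells that cover the liver moved along with these genes. Of 10 mesothelial markers, 6 were higher and 0 lower (median 1.65), with 1 without 5% therapy replicate 2 or normal diet replicate 3 and 3 without 5% therapy replicate 1 or normal diet replicate 1; their summed level was 151, 161 and 141 CPM on normal diet and 175, 191 and 160 CPM in 5% therapy. Msln, mesothelin, went from 1.59, 0.731 and 1.19 CPM to 7.33, 13.4 and 4.55 CPM (2.85, SE 0.55, adjusted p 0.00171). The part of mesothelium in the matrix result was not tested. Sinusoidal endothelial markers had 4 of 18 higher and 1 lower (median 0.29), and the higher count was 2 without 5% therapy replicate 2 and 7 without 5% therapy replicate 3, the lower count 0 without 5% therapy replicate 1 or 3 or normal diet replicate 1 or 2. Cholangiocyte markers had 1 of 15 higher and 0 lower (median 0.59), and 0 higher without 5% therapy replicate 1 or 2 or any 1 control. Activated stellate cell and myofibroblast markers had 3 of 13 higher and 1 lower (median 1.09), with 0 higher without 5% therapy replicate 2 or normal diet replicate 3, 1 without 5% therapy replicate 1 or normal diet replicate 1, and 0 lower without 5% therapy replicate 2 or normal diet replicate 1. Muscle markers had 0 of 5 called.

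Clock genes differed in both directions, and the hour at which livers were taken is not given in the sources used here. Of 17 members, 5 were higher and 4 lower (median 0.31). An output gene and a repressor were higher: Dbp stood at 2.27, 1.02 and 0.769 CPM on normal diet and at 61.3, 19 and 68 CPM in 5% therapy (5.17, SE 0.88, adjusted p 0.0006), and Nr1d2, the repressor REV-ERB beta, at 35.6, 30.6 and 33 CPM and at 83.9, 80.5 and 104 CPM (1.44, SE 0.17, adjusted p 1.47e-05). Activators of the clock were lower: Npas2 stood at 14.3, 17.3 and 15.7 CPM and at 2.85, 6.77 and 4.17 CPM (-1.77, SE 0.29, adjusted p 0.00041), and Arntl, which encodes BMAL1, at 35.9, 37 and 31 CPM and at 9.84, 21.1 and 18.3 CPM (-1.07, SE 0.25, adjusted p 0.00792). The 3 treated livers differed among themselves, replicate 2 being the lowest for Dbp and the highest for both activators. Without 5% therapy replicate 1 the list had 2 higher and 2 lower, without 5% therapy replicate 3 it had 3 higher, without normal diet replicate 1 it had 3 higher and 2 lower, and without normal diet replicate 2 it had 2 lower. FAT-MASH without mannose had 2.12, 19.1 and 19.2 CPM of Dbp.

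Metal handling had 4 of 15 higher and 2 lower (median -0.01), and 0 to 1 lower without any 1 of 5% therapy replicates 2 and 3 or the 3 controls. Slc39a4, a zinc importer, stood at 61.2, 45.9 and 73.6 CPM on normal diet and at 112, 108 and 119 CPM in 5% therapy (0.91, SE 0.15, adjusted p 0.00049). Slc40a1, the iron exporter ferroportin, stood at 152, 117 and 115 CPM and at 263, 229 and 195 CPM (0.84, SE 0.18, adjusted p 0.00428). Both were above all controls in every treated liver.

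Compared directly with FAT-MASH without mannose, few genes passed in the treated livers. Of 19571 genes 7 passed (0.0358%), 5 higher (0.0255%) and 2 lower (0.0102%) in 5% therapy, with 1219 at an unadjusted p under 0.05. Aacs, acetoacetyl-CoA synthetase, which feeds ketone bodies to lipid synthesis, stood at 187, 192 and 183 CPM on normal diet, 25.7, 27.5 and 19.5 CPM in FAT-MASH and 87.1, 49.4 and 71.5 CPM in 5% therapy. The treated livers were thus between the other two groups, below normal diet and above FAT-MASH without overlap (1.52, SE 0.20, adjusted p 0.00632 against FAT-MASH).

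Other genes that passed had different orders. Peg10, an imprinted gene of placenta and liver tumours, was higher in 5% therapy than in either group, at 5.23, 7.99 and 11 CPM beside 2.54 to 3.47 CPM in FAT-MASH and 1.32 to 1.82 CPM on normal diet (1.44, SE 0.22, adjusted p 0.0135). Eps8l1, of the EPS8 family of actin regulators, was at 2.99, 2.53 and 3.56 CPM beside 0.282 to 0.458 CPM (2.98, SE 0.44, adjusted p 0.0135). Tuba1c, an alpha-tubulin, was at 107, 78.7 and 75.1 CPM beside 49.6 to 54 CPM (0.73, SE 0.12, adjusted p 0.0223), with a normal diet level of 97.1 to 106 CPM.

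The lower genes were Ip6k2, an inositol hexakisphosphate kinase, at 30.5, 34.9 and 46.6 CPM beside 140, 59.9 and 95.9 CPM (-1.40, SE 0.23, adjusted p 0.0241), and Arl4d, a small GTPase, at 27.6, 20.2 and 23.3 CPM beside 95.4, 35.9 and 65.3 CPM (-1.47, SE 0.25, adjusted p 0.0291). For Ip6k2 the treated livers lay at the normal diet level of 34.8 to 39.6 CPM. Each of the 7 calls was lost in 3 to 7 of 14 alternatives. Without FAT-MASH replicate 1 no gene passed (0 higher, 0 lower), without FAT-MASH replicate 2 there were 14 higher and 29 lower, without FAT-MASH replicate 3 there were 2 higher and 0 lower, and 0 were lower without 5% therapy replicate 1 or 2 and 1 without 5% therapy replicate 3; DESeq2 called 34 higher and 51 lower. Of 20 cholesterol synthesis genes 0 passed in this comparison. The changes of 19 were above 0, with a median of 0.34 beside -0.01 for all genes tested. Summed levels of the 20 genes overlapped, at 1740, 2150 and 2130 CPM in 5% therapy and 1310, 1850 and 1720 CPM in FAT-MASH.

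**Figure D5:**
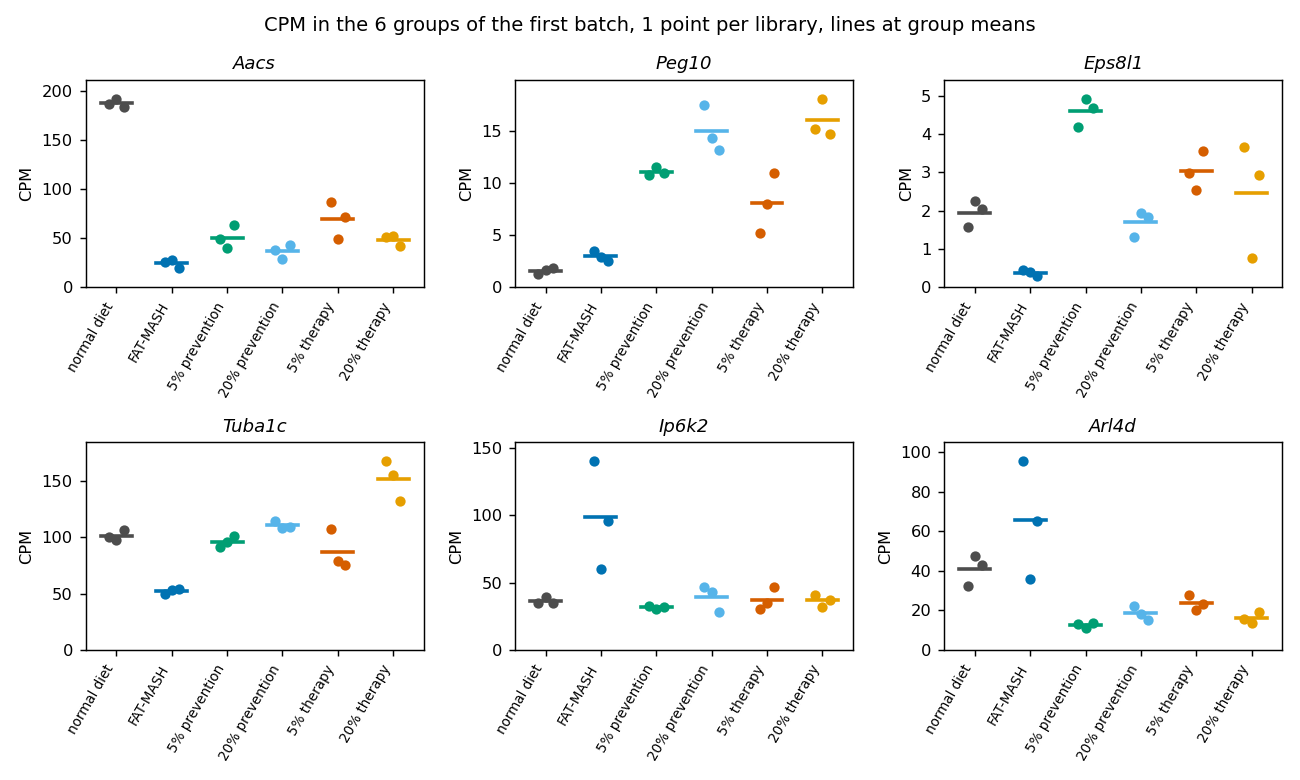
CPM of 6 of the 7 genes that passed between 5% therapy and FAT-MASH without mannose, 1 point per library and lines at group means, in the 6 groups of the first batch. Aacs in 5% therapy lies between FAT-MASH and normal diet, while Ip6k2 lies at 30.5 to 46.6 CPM, near normal diet.

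Against 5% prevention, 38 genes passed (0.194%), 17 higher (0.0869%) and 21 lower (0.107%) in 5% therapy, with 2383 at an unadjusted p under 0.05. Cyclin D1 and a MYB factor were among the lower genes: Ccnd1 was at 16.6, 26.2 and 27.3 CPM in 5% therapy and at 79.3, 36.5 and 87 CPM in 5% prevention (-1.53, SE 0.28, adjusted p 0.0319), and Mybl1, a transcription factor of the MYB family, at 2.27, 3.16 and 2.93 CPM and at 11.1, 10.3 and 8.38 CPM (-1.83, SE 0.26, adjusted p 0.00628). Tubb2a, a beta-tubulin, changed by -1.28, Npas2 by -1.63, Ccdc120 by -1.17 and Abtb2 by -1.10. Of the 24 cell cycle genes, 1 passed and was lower, and the median was -1.38 beside -0.01 for all genes.

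Enzymes of bile acid synthesis and glucose output were among the higher genes. Cyp7a1 stood at 123, 157 and 91.6 CPM in 5% therapy and at 41.5, 29.2 and 29.6 CPM in 5% prevention (1.89, adjusted p 0.015), and G6pc at 661, 312 and 236 CPM and at 165, 111 and 159 CPM (1.47, adjusted p 0.0261). Both were without overlap, as the rule for naming the genes of this comparison required. Cyp2d9, a male-biased cytochrome, rose by 1.42, Tbx3os1, an RNA antisense to Tbx3, by 1.25, Acpp, a prostatic-type acid phosphatase, by 1.17 and Mcm10, a replication factor, by 0.98. None of the 6 rises and 6 falls named here kept its call in all 14 alternatives, with an adjusted p of up to 0.22; Mybl1 lost it in 1 and Ccnd1 in 5. The counts rest on single libraries: leaving out 5% therapy replicate 1, 2 or 3 gave 1, 123 and 4 higher and 1, 78 and 6 lower, leaving out 5% prevention replicate 1 or 3 gave 2 higher and 4 lower each, and 42 were lower without 5% prevention replicate 2. Against the shared normal diet libraries, FAT-MASH without mannose had 2687 calls (13.7%) and 5% prevention 4387 (22.4%; 12.3% higher and 10.1% lower), beside 2530 for 5% therapy.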

How the data were processed

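Poly-A RNA of mouse liver was sequenced, and the members, gene lists and comparisons described here were chosen with earlier results of these data known. The authors deposited a table of raw gene-level read counts in whole numbers. Reads were aligned with STAR to GRCm39 and counted with featureCounts, per the submitters' processing notes (2.0.6) and the file headers (2.0.1, GENCODE M31). The header's command sets no strand or multi-mapping option, so counting was unstranded and limited to unique alignments, and overlapping or near-identical genes cannot be told apart. The table has 56980 genes, of which 52073 matched a symbol; 37 mitochondrial genes had 0 counts.

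Counts of the 18 libraries of the first batch, in 6 groups, were fitted together in edgeR 4.0.16 (R 4.3.3) with TMM scaling, filterByExpr and the quasi-likelihood test, Benjamini-Hochberg adjusted at 0.05. CPM values are TMM-scaled, and SE is the change divided by the root of F. On simulated counts for this comparison (18977 genes) the fit recovered 68% of genes changed by 1 and 90% of those changed by 2 on the log2 scale, with 2.47% false among calls. The changed genes, 100 at each size, were drawn only from those with a mean above 1 CPM. They were far fewer than the 2530 genes called in the data. Replicates differed beyond sampling noise in every pair (chi-square over its degrees of freedom, at least 21.2). Genes named are a set of key genes, the 10 largest rises and falls against normal diet (6 in the direct comparisons) whose groups did not overlap and whose mean CPM reached 5, leaving out predicted genes, clones, pseudogenes, immune receptor segments and Mup genes, and up to 6 members of a list with the smallest p. Alternatives used DESeq2 1.42.0, limma 3.58.1's voom with quality weights, other scalings, no filter, other sample sets, a replicate block and leaving out each library. Promoters are RefSeq sequences. Some genes that the rule would name, and one numeric label with a doubtful unit, are not reported here.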

Additional observations from a re-analysis of the deposited data

Results flagged for a closer look

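Differences between treated groups that passed a direct test under the same regimen are listed here with log2 changes, 5% therapy over the other group. Against FAT-MASH without mannose, Aacs was at 1.52, Peg10 at 1.44, Tuba1c at 0.73, Eps8l1 at 2.98, Arl4d at -1.47 and Ip6k2 at -1.40 (edgeR adjusted p 0.00632 to 0.0291). Each of these calls was lost in 3 to 7 of 14 alternatives.

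Against 5% prevention, Cyp7a1 was at 1.89, G6pc at 1.47, Cyp2d9 at 1.42, Tbx3os1 at 1.25, Acpp at 1.17 and Mcm10 at 0.98, and Mybl1 was at -1.83, Npas2 at -1.63, Ccnd1 at -1.53, Tubb2a at -1.28, Ccdc120 at -1.17 and Abtb2 at -1.10 (edgeR adjusted p 0.00628 to 0.0468). None of these 12 kept its call in all 14 alternatives, with an adjusted p of up to 0.22. Reads of Tbx3os1 and of overlapping genes cannot be told apart without strand.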

How the results depend on the processing

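Against normal diet the counts of 1377 higher and 1153 lower genes stayed within 1.5 times under DESeq2 (1676 and 1463), RLE factors, library totals, no filter, voom, the 2 groups alone, all 25 libraries with a batch term and the replicate block (1255 and 1064), and leaving out 1 library gave 720 to 1423 higher and 695 to 1086 lower. Replicate numbers were not treated as pairs in the main fit, and whether they pair the samples is not settled. Same-numbered libraries of 5% therapy and normal diet correlated at -0.02, 0.07 and 0.075. Treated replicates 2 and 3 correlated best with their own number, and replicate 1 with normal diet replicate 3 (0.027). Against FAT-MASH (5 higher, 2 lower) DESeq2 gave 34 and 51, no filter 155 and 184, voom 3 and 1, the 2 groups alone 0 and 1, all 25 libraries 3 and 7, the replicate block 4 lower, and leaving out 1 library 0 to 14 and 0 to 29. Against 5% prevention (17 higher, 21 lower) DESeq2 gave 179 and 179, library totals 8 higher, no filter 374 and 488, voom 74 and 62, the 2 groups alone 3 and 2, the replicate block 7 and 10, and leaving out 1 library 1 to 123 and 1 to 78. Beyond the smaller sample sets, the cause was not tested. Of the alternative values of single genes, 4068 kept direction and side of the threshold, 451 lost the call, 116 gained one and 1 turned: Jchain was at 0.09 without normal diet replicate 1, within a leave-one-out range of -3.03 to 0.09. With 3 mice a group some changes are missed, as the simulation recovered 68% of genes changed by 1 on the log2 scale. Changes below 1 were not simulated.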
